A study of Mus musculus with 35 samples.

Results

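The genes described here were Ly6c2, Ccr2, Plac8, Ms4a4c, Vcan, Hp, Chil1 and Chil3, 8 of the 45706 genes in the deposited tables. They were found by matching the tables' Ensembl identifiers to these symbols, and all 8 were present. Most serve as markers of classical monocytes, the blood cells that enter inflamed tissue, and Chil1 and Chil3 encode chitinase-like proteins. In rNLS8 mice given doxycycline again for 1 week, 6 of the 7 genes with enough counts to test were higher than in controls. Of all tested genes 2.87% were higher. Ly6c2, 1 of the 6, was tested only through the recovery libraries, and the 8 genes were chosen with earlier results of these data known. Chil3, Ly6c2, Hp, Chil1, Plac8 and Ccr2 were highest in the same 3 recovery libraries, while Ms4a4c was not. Ccr2 itself did not pass the test. In late disease only Ms4a4c passed the test, and in early disease none did.

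Classical monocytes leave the bone marrow through the chemokine receptor CCR2, carry much Ly6C on their surface, and can mature into macrophages after they enter tissue. Chitinase-like proteins resemble the enzymes that cut chitin but lack catalytic activity, and they are secreted by activated myeloid cells. Several of these genes are not exclusive to monocytes: Chil3, Hp and, at a lower level, Ly6c2 are also transcribed in neutrophils or their marrow precursors. Microglia, the resident macrophages of the spinal cord, share CD11b and CD45 with both blood cell types, so a sort on these antigens can hold all 3.

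Bulk RNA sequencing was performed on cells sorted by CD11b and CD45 from whole spinal cord. All mice were of a mixed C57BL/6J X C3HeJ F1 background and had doxycycline in the diet until 8 to 12 weeks of age. rNLS8 mice carry 2 transgenes, a tTA activator under the promoter of NEFH, a neurofilament of neurons, and a tetO-controlled hTDP43, which is silent while doxycycline is given. Early disease comprised 7 rNLS8 mice without doxycycline for 2 weeks, late disease 7 without it for 6 weeks, and recovery 7 without it for 6 weeks and back on it for 1 week. The 14 controls had no active transgene. They were 6 rNLS8 mice that never left doxycycline and 8 wild-type (WT) littermates. Of the WT mice, 4 had been without doxycycline for 2 weeks, 1 for 6 weeks, and 3 for 6 weeks followed by 1 week back on it.

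Each library held 13.9 M to 20.4 M expected counts, and 13501 genes were tested. A count of 0 in a library allows a level of up to 0.145 to 0.216 CPM (counts scaled to a common adjusted library size), counting error only. Microglial identity genes dominated every group. P2ry12, a purinergic receptor, was at 7343 ± 1164 CPM in early disease, 5434 ± 1681 in late disease, 6793 ± 1117 in recovery (SD, n = 7 each) and 8366 ± 1149 in controls (n = 14). The T cell gene Cd3e had 0 counts in all 35 libraries. All 7 recovery libraries bear the title code 0803 and no other library does, so this code and recovery cannot be told apart. Libraries are named by group and replicate number. Late 6 stood apart, with the lowest P2ry12 of any library at 1709 CPM. Nothing in the labels says more about how libraries of a group were separated, so p-values measure the spread between these libraries.

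Promoter sequences from RefSeq (build GRCm38.p6, 250 bases before to 50 after the annotated start) were on hand for 7 of the 8 genes. Those of Ly6c2 (minus strand, chr15:75111922-75112221), Chil3 (minus strand, chr3:106167515-106167814) and Ms4a4c (plus strand, chr19:11407411-11407710) are shown. The first 2 genes had the largest differences in recovery, and Ms4a4c differed alike in late disease and recovery. Capitals mark matches, on either strand, to AGGAAGT (a form of the PU.1 motif; PU.1 is a factor of myeloid cells) and to TATAAA (the TATA box).
Ly6c2: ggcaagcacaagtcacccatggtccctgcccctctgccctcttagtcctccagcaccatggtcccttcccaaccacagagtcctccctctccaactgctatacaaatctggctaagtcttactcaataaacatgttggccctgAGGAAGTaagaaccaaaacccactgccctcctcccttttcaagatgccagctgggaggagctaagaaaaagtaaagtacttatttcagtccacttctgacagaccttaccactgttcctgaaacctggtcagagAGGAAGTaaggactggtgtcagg
Chil3: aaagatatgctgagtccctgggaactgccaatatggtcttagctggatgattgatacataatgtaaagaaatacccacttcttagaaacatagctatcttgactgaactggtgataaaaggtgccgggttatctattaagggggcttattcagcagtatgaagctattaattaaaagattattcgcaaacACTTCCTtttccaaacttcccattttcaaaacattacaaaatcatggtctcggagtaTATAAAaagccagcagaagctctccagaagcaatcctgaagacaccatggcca
Ms4a4c: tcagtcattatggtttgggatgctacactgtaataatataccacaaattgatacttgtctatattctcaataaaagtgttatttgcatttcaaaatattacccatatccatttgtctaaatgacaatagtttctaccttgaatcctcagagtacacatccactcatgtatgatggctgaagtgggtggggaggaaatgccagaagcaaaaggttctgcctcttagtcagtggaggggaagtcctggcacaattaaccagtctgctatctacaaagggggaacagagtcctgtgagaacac
Ly6c2 held AGGAAGT 107 bases before and again 27 bases after its start. Chil3 held it on the opposite strand 60 bases before its start, and TATAAA 3 bases before it. Ms4a4c held neither. A second annotated Ly6c2 start, whose window overlaps the one shown, covers the same pair of matches. TTGCNNAA, a form of the C/EBP motif, was found only for Plac8, near the downstream of its annotated starts. The windows of Ccr2, Vcan and Chil1 held none of the 3 motifs. Of 32851 mouse promoter windows of this length, 9.35% hold AGGAAGT, 13.6% TATAAA and 10.8% TTGCNNAA. The matches do not overlap one another, and they describe letters, not binding.

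**Figure D1:**
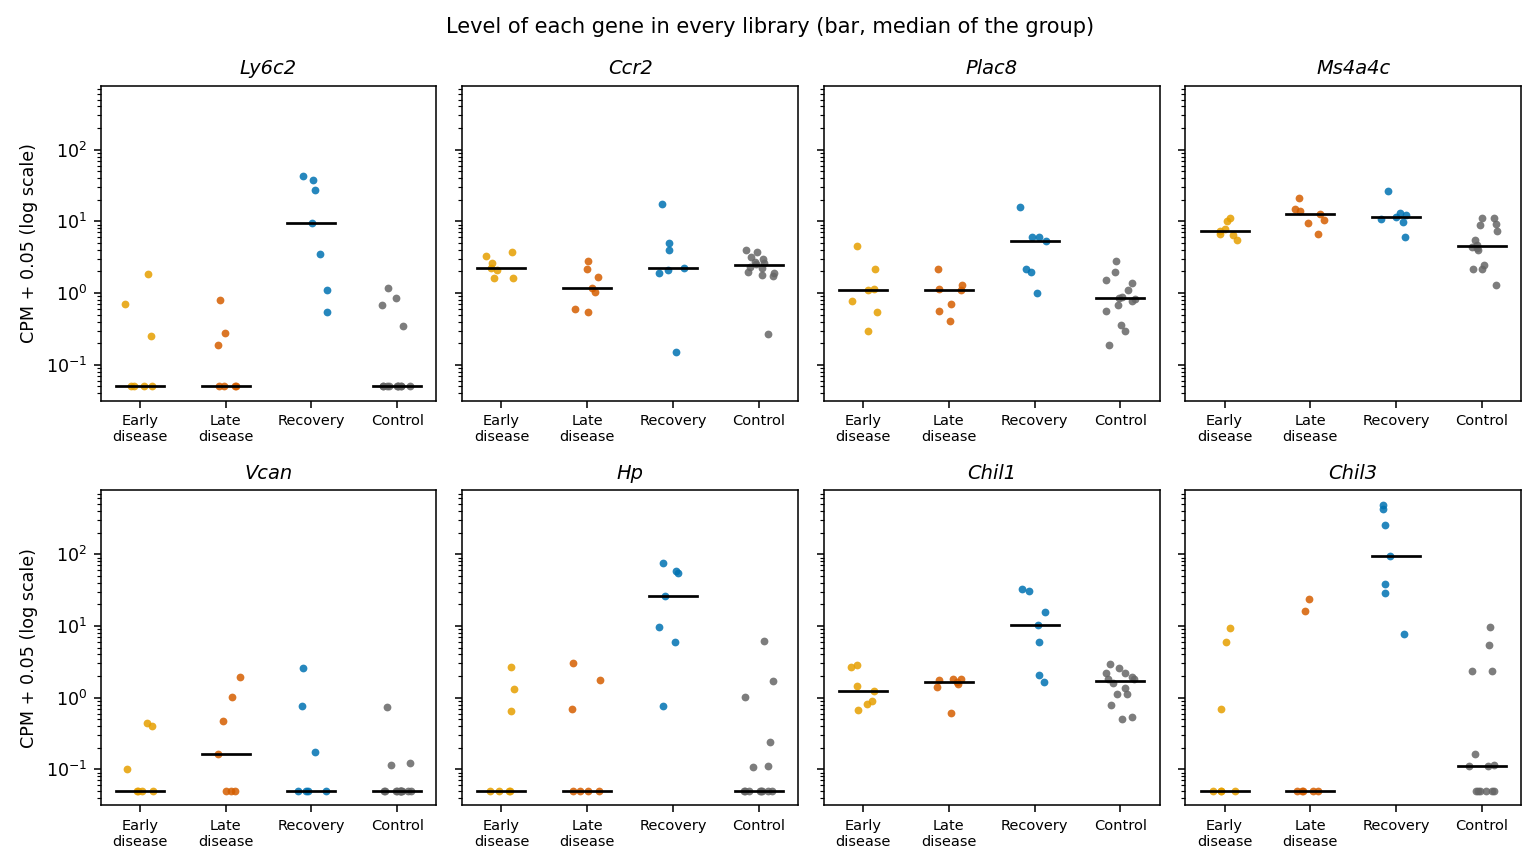
Level of each of the 8 genes in every library, as CPM + 0.05 on a log axis, for 7 early-disease, 7 late-disease, 7 recovery and 14 control libraries. Bars are group medians, and points at 0.05 are libraries with 0 counts. Ly6c2, Hp and Chil3 stand high in recovery and spread widely there, Ccr2 has nearly the same median in recovery and controls, and Ms4a4c is high in both late disease and recovery.

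The comparison of recovery with controls asked which genes differed once the transgene had been silenced again. Of the 7 genes tested, 6 were higher in recovery and 0 lower (edgeR's quasi-likelihood test, adjusted p under 0.05), against 2.87% of all tested genes called higher, 1.1% called lower and 3.98% called in either direction. Ly6c2 was tested only through the recovery libraries themselves, so its place in this count was set by the filter; of the other 6 genes 5 were higher. The counts are a description of the genes that passed the filter. Recovery and control libraries overlapped for each of the 8 genes. In bulk libraries, more cells of a type and more RNA per cell cannot be told apart.

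Ly6c2 (ENSMUSG00000022584.12, chr15:75108158-75111970, minus strand, mm10) encodes the Ly6C surface antigen, anchored to the membrane by a lipid. Its lowest, median and highest levels were 0.50, 9.38 and 43.0 CPM in recovery, against 0, 0 and 1.13 CPM in controls. Of the 14 control libraries, 10 had 0 counts, and 5 of the 7 recovery libraries lay above the highest control. The log2 fold change was 6.60 ± 0.95 (SE), with an adjusted p of 2.7e-05. Ly6c2 passed the filter on low counts only through the recovery libraries: 6 libraries outside recovery reached the cutoff of 0.588 CPM, and 7 were needed. Its transcript is 97.6% identical to that of Ly6c1 over 822 bases. Reads of the 2 genes may therefore be split by estimation, and Ly6c1, which was not tested, had a median of 1.25 CPM in recovery and 0 in controls. Its recovery mean of 6.24 CPM rested on Recovery 9, at 30.1 CPM, with the next library at 9.86 CPM.

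Ccr2 (ENSMUSG00000049103.11, chr9:124101950-124113557, plus strand) encodes the receptor for CCL2 and related chemokines. It ran from 0.10 through a median of 2.20 to 17.2 CPM in recovery, and from 0.216 through 2.38 to 3.98 CPM in controls. Only 3 of 7 recovery libraries lay above the control median, and Recovery 9 stood far above the rest. The log2 fold change of 0.95 ± 0.47 did not pass (adjusted p = 0.293), and without Recovery 9 it was 0.08.

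Ms4a4c (ENSMUSG00000024675.17, chr19:11404770-11427246, plus strand) encodes a membrane protein of the MS4A family found in myeloid cells. Its level ran from 6.01 through 11.5 to 26.2 CPM in recovery and from 1.23 through 4.51 to 11.2 CPM in controls. All 7 recovery libraries lay above the control median and 4 above the highest control. The log2 fold change was 1.20 ± 0.31 (adjusted p = 0.0200). The call was lost without Recovery 9 (0.93, adjusted p = 0.131), against the 8 WT controls alone (1.01, 0.113) and in a fit of only the libraries compared (1.21, 0.0633).

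Plac8 (ENSMUSG00000029322.10, chr5:100553725-100572245, minus strand) encodes a small cysteine-rich intracellular protein of myeloid and lymphoid cells. It was at 0.950, 5.29 and 15.7 CPM (lowest, median, highest) in recovery and at 0.137, 0.795 and 2.73 CPM in controls. All 7 recovery libraries exceeded the control median, and 4 exceeded every control. Its log2 fold change was 2.51 ± 0.46 (adjusted p = 6.9e-04), and the call was lost against the 3 WT controls of the same diet (2.77, adjusted p = 0.0626).

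Hp (ENSMUSG00000031722.9, chr8:109575128-109579172, minus strand) encodes haptoglobin, which binds free haemoglobin in plasma and is stored in neutrophil granules. Its lowest, median and highest levels were 0.708, 26.1 and 75.0 CPM in recovery, and 0, 0 and 6.15 CPM in controls. Control 6, an rNLS8 mouse kept on doxycycline, held the 6.15 CPM, and 8 controls had 0 counts. The log2 fold change was 5.59 ± 1.02 (adjusted p = 6.8e-04), and it was 8.08 without Control 6. Of 6 tested genes of haemoglobin, haem and iron handling, among them Lrp1, Slc40a1, Fth1 and Ftl1, 0 passed in recovery.

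Vcan (ENSMUSG00000021614.14, chr13:89655312-89742509, minus strand) encodes versican, a large matrix proteoglycan that classical monocytes make. It had 0 counts in 4 of 7 recovery libraries, and its highest level there was 2.56 CPM in Recovery 9. Among controls 11 of 14 libraries had 0 counts, and the highest was 0.689 CPM. Vcan was not tested, since only 3 libraries outside recovery and too few in all reached the cutoff. It overlaps an antisense gene, Gm4117, whose reads cannot be separated in these unstranded libraries. Cd44, a receptor for the hyaluronan that versican binds, was at 17.1 CPM in recovery and 5.29 CPM in controls (log2 fold change 1.67 ± 0.38, adjusted p = 0.00742), 1 of 2 tested versican partners to pass.

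Chil1 (ENSMUSG00000064246.8, chr1:134182176-134190181, plus strand) encodes a chitinase-like glycoprotein secreted by macrophages, neutrophils and astrocytes. It ran from 1.59 through 10.3 to 32.4 CPM in recovery and from 0.452 through 1.67 to 2.93 CPM in controls. Every control library had counts, and 5 of 7 recovery libraries lay above the highest of them. Chil1 had a log2 fold change of 3.21 ± 0.41 (adjusted p = 6.6e-06), and of 2.68 without Recovery 3.

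Chil3 (ENSMUSG00000040809.10, chr3:106147554-106167564, minus strand) encodes a secreted chitinase-like lectin of rodent monocytes, neutrophil precursors and alternatively activated macrophages. Its lowest, median and highest levels were 7.75, 94.9 and 490 CPM in recovery, against 0, 0.061 and 9.71 CPM in controls. Only Recovery 4 fell within the range of the controls. The log2 fold change was 8.11 ± 1.07 (adjusted p = 9.58e-06), the largest of the 8 genes. Without Recovery 3 the log2 fold change was 6.88 for Chil3, 5.76 for Ly6c2 and 4.99 for Hp, and without Control 6 it was 8.84 for Chil3 and 7.59 for Ly6c2, with every one of these calls kept. The Chil3 transcript is 94.3% identical to that of Chil4 over 1540 bases, and Chil4 averaged 0.023 CPM in recovery and 0 in controls.

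Among other genes of the chitinase family, Ctbs, which encodes the lysosomal enzyme chitobiase, and Chid1, which encodes a protein with a chitinase-like domain, were tested, and 0 of these 2 passed, with log2 fold changes of −0.01 and −0.10. Chit1, the chitotriosidase, was at 0 in all 14 controls and reached at most 0.852 CPM in recovery, in Recovery 9. Chil5 was also at 0 in all controls, and its median was 0.601 CPM in recovery. Chia1 and Chil6 were listed at 0 in both groups. Of 5 tested Ly6-family genes, only Ly6g, the defining surface antigen of mouse neutrophils, was called (log2 fold change 4.66 ± 1.07, adjusted p = 0.00788). Like Ly6c2, it passed the filter on low counts only through the recovery libraries. Outside them Ly6g had 0 counts in 5 of 7 late-disease, 4 of 7 early-disease and 10 of 14 control libraries. Ly6e, an interferon-inducible member, was at 995 CPM in recovery and 1239 CPM in controls and did not pass. Of 5 tested Ms4a-family genes 1 was called, Ms4a7, a gene of border macrophages, at 1.75 CPM in recovery and 0.337 CPM in controls (adjusted p = 0.0373, but 0.0591 without Recovery 3 and 0.133 without Recovery 9).

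Compared per transcript length as TPM (counts scaled for transcript length and library total), the recovery means ordered Chil3 first at 214 ± 224 TPM, followed by Hp at 42.3 ± 38.2, Ly6c2 at 36.1 ± 36.5, Ms4a4c at 15.9 ± 7.34, Chil1 at 15.2 ± 13.1, Plac8 at 12.3 ± 10.2, Ccr2 at 2.29 ± 2.68 and Vcan at 0.151 ± 0.286 (SD, n = 7). Each gap between neighbours in this order was smaller than the SD of the higher gene. In controls Ms4a4c was first at 7.07 ± 5.11 TPM, followed by Chil1 at 2.49 ± 1.28, Plac8 at 2.15 ± 1.34, Chil3 at 1.79 ± 3.64, Ccr2 at 1.29 ± 0.61, Hp at 0.847 ± 2.06, Ly6c2 at 0.456 ± 0.83 and Vcan at 0.040 ± 0.099 (n = 14). There too each gap was smaller than the SD of the higher gene. Chil3 thus stood first in recovery, and behind Ms4a4c, Chil1 and Plac8 in controls. Part of each library's TPM total lay outside the listed genes. It was 4.09% to 8.86% in recovery and 13.9% to 30.8% in controls of title code 0810. TPM levels of recovery and controls are therefore not on the same scale.

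The spread among recovery libraries was shared by most of the genes. Chil3 was at 490, 431 and 255 CPM in Recovery 3, 9 and 7, at 94.9 in Recovery 2, and at 38.0, 28.8 and 7.75 in Recovery 8, 5 and 4. Ly6c2 was at 37.2, 43.0 and 27.4 CPM in Recovery 3, 9 and 7, at 9.38 in Recovery 2, and at 1.06, 3.41 and 0.50 in Recovery 8, 5 and 4. Recovery 3, 7 and 9 were thus high for both genes and Recovery 4 and 8 among the lowest. The same 3 libraries were highest for Hp, Chil1, Plac8 and Ccr2. For Plac8 the lowest of them, Recovery 3 at 5.96 CPM, was close to Recovery 2 at 5.29 CPM. Ccr2 was at 17.2, 4.90 and 3.94 CPM in Recovery 9, 3 and 7, and at 2.20 CPM in Recovery 2. Ms4a4c was highest in Recovery 9 (26.2 CPM) and next in Recovery 4 (13.2 CPM).

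Many markers of neutrophils were also higher in recovery. Of 18 tested neutrophil markers, 15 were called higher in recovery and 0 lower, with a median log2 fold change of 4.58. For these and the monocyte markers below, the share of all tested genes called higher was 2.87%. S100a8, an abundant neutrophil calcium-binding protein, averaged 726 ± 729 CPM in recovery (n = 7) and 13.6 ± 22.8 CPM in controls (n = 14). The summed level of the 20 listed markers ran from 941 to 18100 TPM in recovery and from 249 to 989 TPM in controls. Of 17 further monocyte markers tested, 11 were called higher and 0 lower, with a median of 2.66, and their list summed to 76.5 to 306 TPM in recovery and 50.8 to 95.6 TPM in controls. Neither sum was adjusted for the TPM outside the listed genes, a larger part in controls of title code 0810. The 4 tested monocyte markers of highest mean TPM were Smpdl3a, Ms4a6c, Ifitm6 and Thbs1. Of these Ifitm6, a transmembrane protein gene of monocytes and neutrophils, was called (log2 fold change 4.22 ± 1.02, adjusted p = 0.0118). Smpdl3a (0.03 ± 0.19), Ms4a6c (0.67 ± 0.44) and Thbs1 (0.18 ± 0.48) were not. Without Recovery 3 the calls were 9 of 18 neutrophil and 8 of 17 monocyte markers. Ly6g, among the 18, passed the filter on low counts only through the recovery libraries, so its place in the count was set by the filter. The filter was not examined for the other markers. The part of either cell type in the 8 genes' differences was not tested.

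Within the 7 recovery libraries, log2 CPM of each gene was set against the mean log2 CPM of the 18 neutrophil markers and of the 17 monocyte markers, 16 relations in all. Chil1 had Pearson's r = 0.99 with the neutrophil mean (exact permutation p = 0.000397, adjusted p = 0.00635) and Spearman's rho = 1.00 (the same p, the smallest that 7 libraries gave here). For Hp r was 0.97 and rho 0.96 (exact permutation, adjusted p = 0.00635 and 0.0222), for Ly6c2 0.96 and 0.93 (0.0102 and 0.0270), and for Chil3 0.89 and 0.89 (0.0317 and 0.0281). All 4 kept r of at least 0.977 without Recovery 3 and 8, the libraries farthest from the median. Plac8 had r = 0.84 and rho = 0.79 (exact permutation, adjusted p = 0.0413 and 0.0591). For Ccr2 they were 0.70 and 0.86 (0.108 and 0.0381), and for Vcan 0.61 and 0.49 (0.141 and 0.294). Ms4a4c had r = 0.42 and rho = 0.29 (exact permutation, adjusted p = 0.358 and 0.556). With the monocyte mean r was 0.96 for Hp, 0.95 for Chil1, 0.94 for Ly6c2, 0.86 for Chil3, 0.85 for Plac8 and 0.52 for Ms4a4c (exact permutation, adjusted p = 0.00952, 0.00952, 0.0159, 0.0413, 0.0341 and 0.256). For Ccr2 and Vcan r with the monocyte mean was 0.67 and 0.73 (exact permutation, adjusted p = 0.127 and 0.0693). The 2 means thus ordered the recovery libraries much alike, and these 7 libraries do not separate them.

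**Figure D2:**
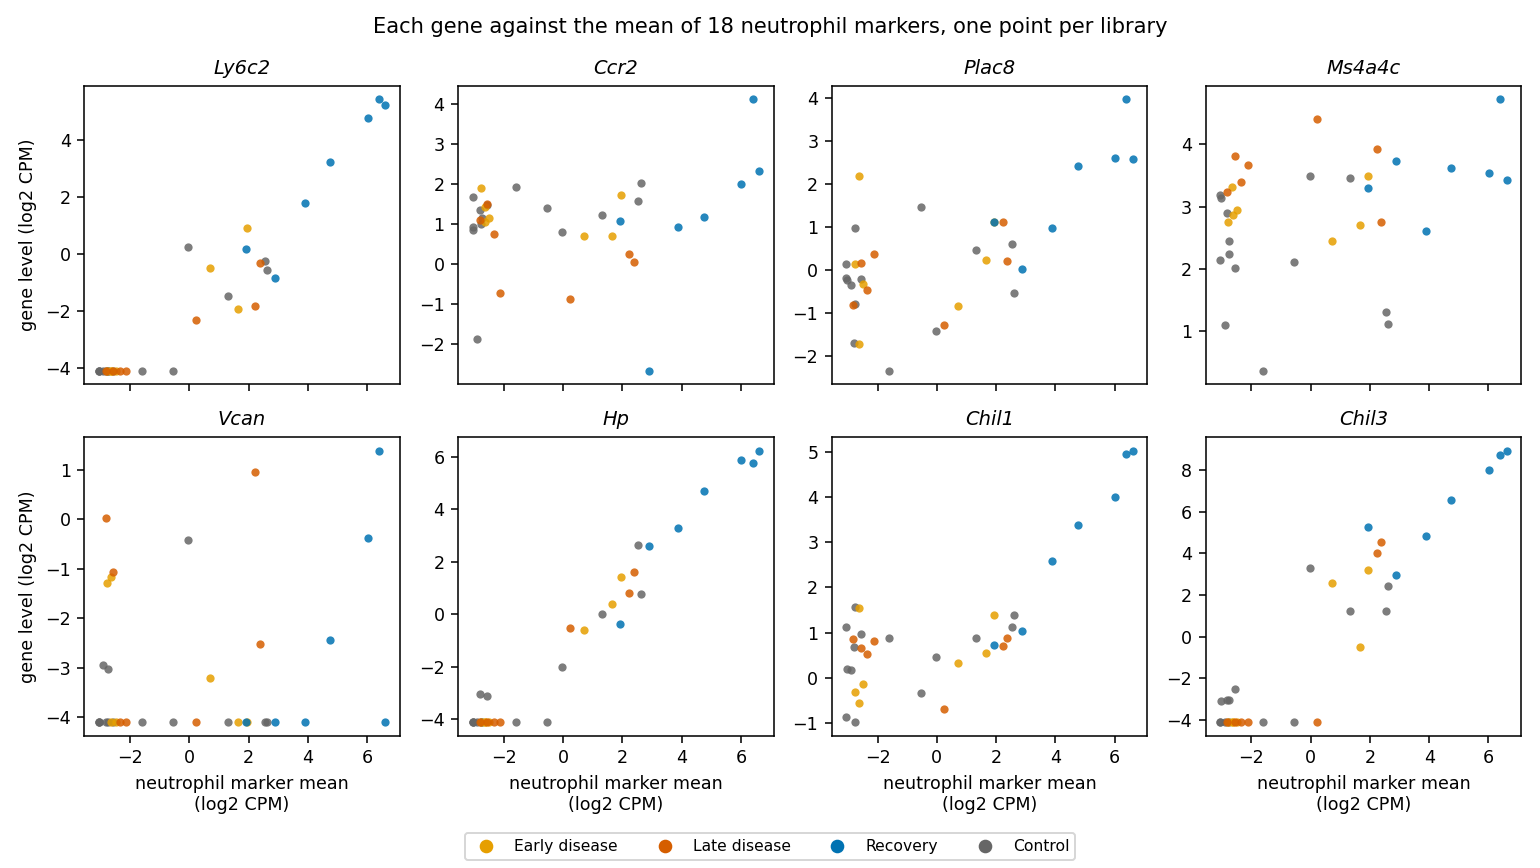
Level of each gene (log2 CPM, vertical axis) against the mean log2 CPM of 18 neutrophil markers (horizontal axis), one point per library and coloured by group. Recovery points of Hp, Chil1, Chil3 and Ly6c2 climb with the marker mean, which ran from 1.92 to 6.62 in recovery, and the 10 libraries outside recovery that had Ly6c2 counts are those with marker means of −0.037 or more. Ms4a4c shows no such slope.

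Outside recovery Chil1, Ccr2, Plac8 and Ms4a4c had counts in every library, while Chil3, Ly6c2 and Hp had 0 counts in many. Chil3 was at 16.2 and 23.6 CPM in Late 3 and Late 4 and at 0 in the other 5 late-disease libraries. In early disease it was at 9.23 CPM in Early 4, 5.83 CPM in Early 8 and 0.654 CPM in Early 7, and in controls at 9.71, 5.35, 2.31 and 2.27 CPM in Controls 13, 12, 6 and 14. The neutrophil marker mean was 2.23 and 2.38 log2 CPM in Late 3 and 4, and it lay between −2.82 and 0.226 in the other late-disease libraries. It was 1.94, 0.714 and 1.66 in Early 4, 8 and 7, so that Early 7 had the higher marker mean but less Chil3 than Early 8. It was −0.037, 2.62, 2.54 and 1.32 in Controls 13, 12, 6 and 14, against −3.05 in the lowest control.

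Likeness was measured as Pearson's r of log2 CPM after each group's mean was subtracted, over 35 libraries that share normalization, for 11821 genes. The genes most like Chil3 were Camp (0.96), Ltf (0.95) and Ngp (0.94), which encode neutrophil granule proteins. Those most like Hp were Cd177 (0.94), Anxa1 (0.92) and Ltf (0.92), and those most like Ly6c2 were Pglyrp1 (0.91), Anxa1 (0.89) and Camp (0.89). The 3 genes were also like one another, with r = 0.90 for Ly6c2 and Chil3, 0.88 for Ly6c2 and Hp and 0.84 for Hp and Chil3. For the other members the highest r was lower: 0.69 for Ccr2 with Il1a, an interleukin gene, 0.65 for Plac8 with Cmpk2, 0.65 for Chil1 with Mcemp1, 0.64 for Ms4a4c with AW112010 and 0.58 for Vcan with Ppa2. Ms4a4c had r of at most 0.26 with any other member. These values are descriptions, with no test.

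The comparison of late disease with controls asked what had changed after 6 weeks of transgene expression. Of the 7 genes tested 1 was called higher and 0 lower, against 9.01% of all genes called higher, 6.39% called lower and 15.4% called in either direction. Ms4a4c ran from 6.71 through 12.6 to 21.1 CPM in late disease and from 1.23 through 4.51 to 11.2 CPM in controls. All 7 late-disease libraries exceeded the control median and 4 exceeded every control, with a log2 fold change of 1.22 ± 0.32 (adjusted p = 0.00854). The call did not hold among libraries of shared title codes. Ms4a4c averaged 4.51 ± 2.71 CPM in the 6 rNLS8 controls and 3.47 ± 1.22 in the 3 diet-returned WT controls, all of code 0810, which no late-disease library has, and 7.35 ± 3.83 in the 4 WT controls of 2 weeks (code 1019) and 10.9 in the single WT control of 6 weeks (code 1102). With the code as a term, a fit that called 2 genes in all, the log2 fold change was 0.62 (adjusted p = 0.619), and against controls of shared codes only it was 0.65 (0.346). Recovery shares no code with any control.

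No other member passed the test in late disease. Ccr2 was at 0.493, 1.13 and 2.78 CPM (lowest, median, highest) in late disease and at 0.216, 2.38 and 3.98 CPM in controls, with a log2 fold change of −0.79 ± 0.50 that did not pass (adjusted p = 0.304). Only 1 late-disease library lay above the control median. Ly6c2 reached 0.745 CPM and Hp 2.98 CPM at most, both within the range of controls. Chil3 reached 16.2 and 23.6 CPM in Late 3 and Late 4, above every control, and its log2 fold change of 1.68 ± 1.03 did not pass (adjusted p = 0.281). Chil1 averaged 1.47 ± 0.42 CPM in late disease and 1.57 ± 0.75 CPM in controls (adjusted p = 1.00). Vcan had 0 counts in 3 of the 7 late-disease libraries and reached 1.87 CPM, against at most 0.689 CPM in controls.

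The genes for CCR2 ligands were also measured. All 3 tested, Ccl2, Ccl7 and Ccl12, were called higher in late disease, and 0 of 3 in recovery (also 0 of these 3 by DESeq2), each against the same controls. Of all tested genes 9.01% were called higher in late disease and 2.87% in recovery. Ccl2, the main monocyte attractant, was at 12.6 CPM in late disease and 2.56 CPM in controls (log2 fold change 2.35 ± 0.47, adjusted p = 0.00112). Ccl7 was at 1.95 CPM in late disease and 0.196 CPM in controls (3.35 ± 0.81, adjusted p = 0.00496), and all 7 late-disease libraries lay above the highest control. Ccl12, the most abundant of the 3, was at 93.9 CPM in late disease and 32.7 CPM in controls (1.52 ± 0.40, adjusted p = 0.00907). With the title code as a term the log2 fold changes were 2.11, 3.63 and 1.33 and 0 of 3 were called (adjusted p = 0.239, 0.279 and 0.459), and against controls of shared codes only Ccl2 was called (1.89, 0.0358). In recovery Ccl2 was at 6.37 CPM, and its log2 fold change against controls was 1.35 ± 0.48 (adjusted p = 0.105), but it was called against the 3 WT controls of the same diet (4.77, adjusted p = 0.00292). Recovery minus late disease was not significant for any of the 3 ligands, with a median log2 fold change of −1.01.

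**Figure D3:**
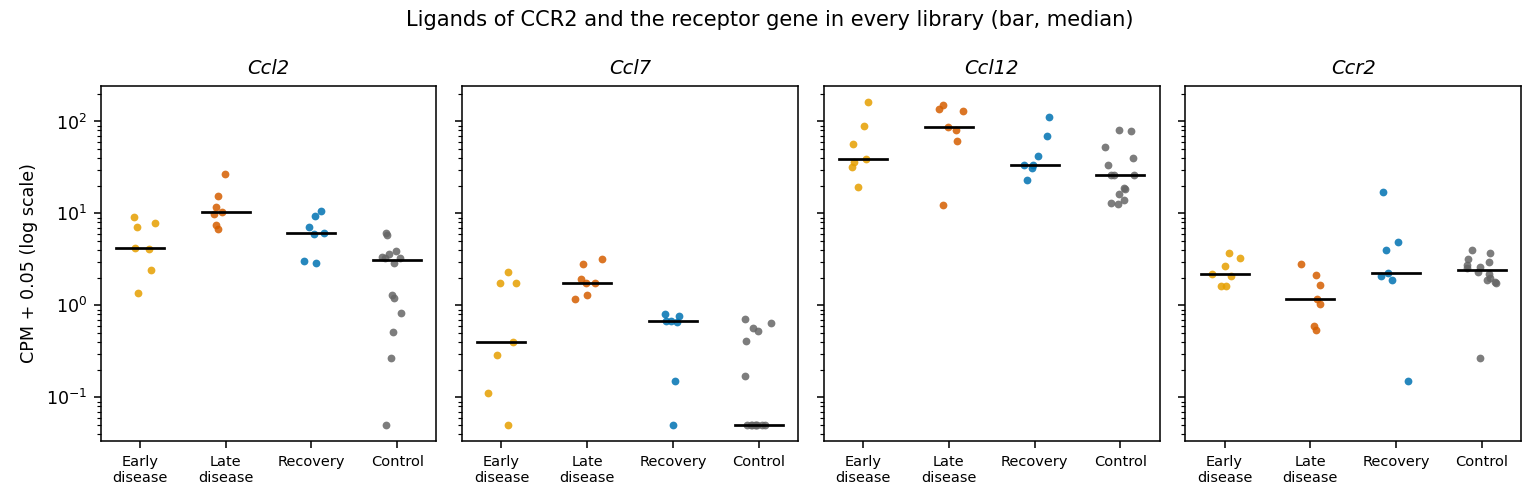
CPM + 0.05 on a log axis of the CCR2 ligand genes Ccl2, Ccl7 and Ccl12 and of Ccr2 in every library, with group medians as bars. The 7 late-disease libraries lie above all controls for Ccl2 and Ccl7, while their Ccr2 median of 1.13 CPM lies below that of recovery (2.20 CPM) and of controls (2.38 CPM).

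In the Ms4a family, 2 of 5 tested genes were called higher in late disease, Ms4a4a and Ms4a6c. For this family and the marker lists below, the share of all tested genes called higher in late disease was 9.01%. Both calls rested on Late 6. Ms4a4a was at 120 CPM in Late 6 and at most 0.718 CPM in the other late-disease libraries, and its log2 fold change was 6.00 ± 1.27 with Late 6 and 0.68 without it. Ms4a6c was at 389 CPM in Late 6 and at most 34.1 CPM in the others, and its log2 fold change of 2.03 ± 0.45 became 0.68. Ms4a4c itself was also highest in Late 6, at 21.1 CPM, but it kept its call without that library (1.05, adjusted p at most 0.0343 over all fits that left out a library). Of the 17 further monocyte markers 7 were called in late disease, and 4 without Late 6. With the title code as a term 0 of 13 were called, and against controls of shared codes 2 of 18. Of the 18 neutrophil markers 3 were called, with a median log2 fold change of −0.24, and 1 was called without Late 6 and 0 in either of the fits on title codes.

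Early disease, 2 weeks into transgene expression, differed from controls in 0 of the 7 genes, with 0 at an unadjusted p under 0.05 and 0 by DESeq2. Over all genes edgeR called 0.00741% in either direction. Ccr2 averaged 2.40 ± 0.81 CPM in early disease (n = 7) and 2.38 ± 0.94 CPM in controls (n = 14). Ms4a4c averaged 7.79 ± 2.04 CPM in early disease and 5.56 ± 3.34 CPM in controls, a log2 fold change of 0.49 ± 0.32 (adjusted p = 0.552). Chil3 reached 9.23 CPM in early disease, within the range of the controls. Ly6c2 was highest in Early 4, at 1.82 CPM, above every control. Plac8 was highest in Early 3, at 4.54 CPM, above every control. Vcan reached at most 0.387 CPM, with 0 counts in 4 of 7 libraries.

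Recovery was compared with late disease to ask what differed after 1 week of silencing. Of the 7 genes 4 were called higher in recovery and 0 lower, against 0.341% of all genes called higher, 0.244% lower and 0.585% in either direction. They were Ly6c2 (log2 fold change 6.95 ± 1.31, adjusted p = 0.0135), Hp (5.53 ± 1.36, 0.0474), Chil1 (3.21 ± 0.52, 0.00363) and Chil3 (6.42 ± 1.32, 0.0280). Ly6c2 was tested only through the recovery libraries, so its place in this count was set by the filter. The count describes genes chosen with earlier results of these data known. For each of the 4, all but 1 of the recovery libraries lay above the highest late-disease library. Plac8 (2.31 ± 0.58, adjusted p = 0.0504) and Ccr2 (1.73 ± 0.58, 0.122) did not pass. Ms4a4c averaged 12.8 ± 6.35 CPM in recovery and 12.7 ± 4.65 CPM in late disease (n = 7 each), a log2 fold change of −0.02 ± 0.37. These calls were less stable than those against controls: leaving out a library gave between 1 and 6, with 1 left without Recovery 3 and 2 left without Recovery 9, Late 1 or Late 3.

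**Figure D4:**
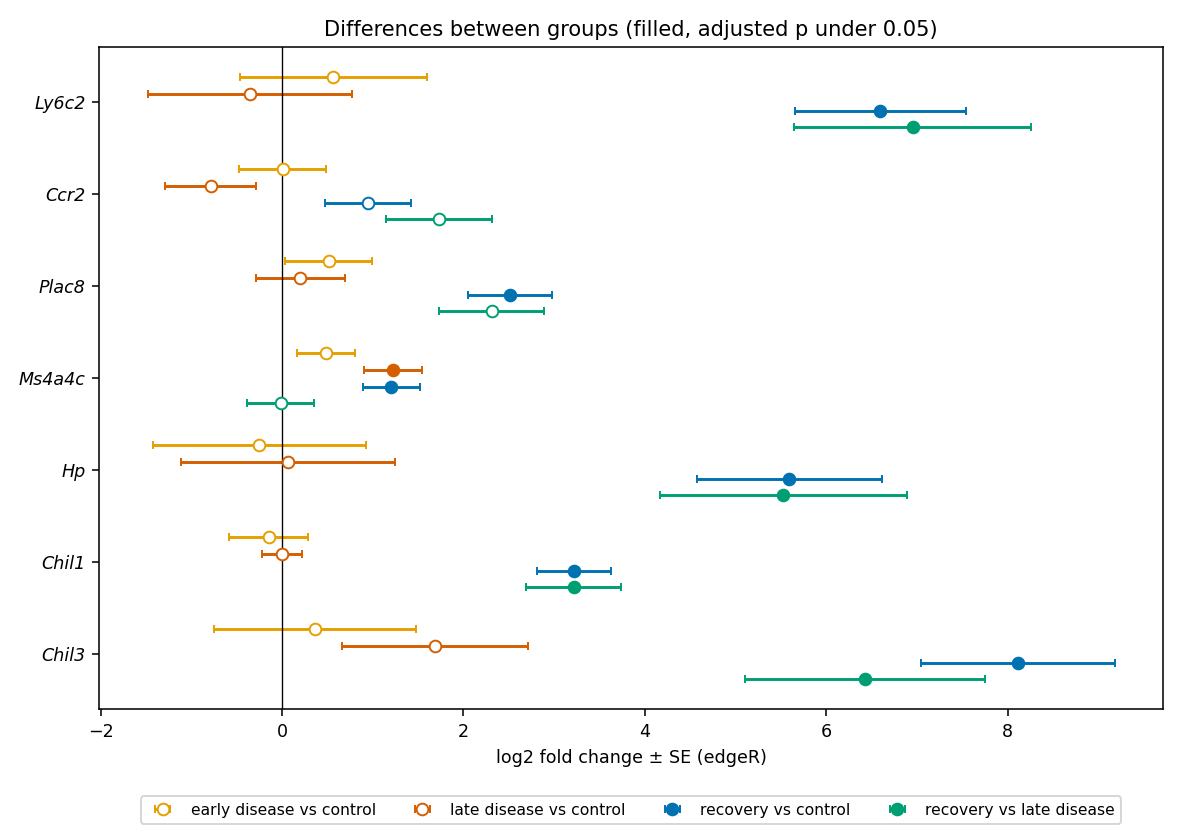
Log2 fold change with its SE (edgeR) for the 7 tested genes in 4 comparisons, with filled points where the adjusted p was under 0.05. Chil3, Ly6c2, Hp and Chil1 differ in recovery from both controls and late disease, while Ms4a4c differs from controls in late disease and in recovery by about the same amount (1.22 and 1.20) and not between the 2.

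The difference between recovery and controls was also tested for an interaction with sex. None of the 7 genes and 0 of 13501 genes passed this test by edgeR, with 0 of the 7 and 706 of all at an unadjusted p under 0.05, and no other tool was run for it. Of the markers of other cells that the sort could hold, those called higher in recovery were 0 of 7 tested astrocyte genes, 0 of 2 T and NK cell genes, 0 of 2 B cell genes and 0 of 3 erythroid genes. Dendritic cell markers gave 1 of 6, nonclassical monocyte markers 1 of 7, endothelial genes 1 of 2 and oligodendrocyte precursor genes 1 of 1. Fibroblast and mural cell genes gave 0 of 1, and granulocyte precursor genes 2 of 2. Border macrophage markers gave 3 of 9, against 2.87% of all genes, and 1 of 9 without Recovery 3 or without Recovery 9; their part in the differences of the 8 genes was not tested. The neutrophil granule enzyme gene Mpo, from the granulocyte precursor list but not tested, was at 0 in all controls and in 5 of 7 recovery libraries. The genes thus matched a set of infiltrating monocyte markers in part: Ly6c2, Plac8 and Ms4a4c were higher in recovery, Ccr2 did not pass, and Vcan was near 0. The Ms4a4c call was lost without Recovery 9, against WT controls alone and in a fit of only the libraries compared. The Plac8 call was lost against the WT controls of the same diet and with a replicate block. The genes most like Ly6c2 were Pglyrp1, Anxa1 and Camp, and its cell source was not tested. The neutrophil-defining Ly6g was higher in the same libraries. Both Ly6c2 and Ly6g were tested only through the recovery libraries.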

How the data were processed

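Cells sorted by CD11b and CD45 from spinal cord were profiled in 35 libraries. The authors deposited expected counts and TPM per gene, made with RSEM on mm10 per the submitters' processing notes, which also name DESeq2. Their versions are not stated in the labels. The authors' design table gives the count of alignments per library. Of the deposited expected counts 84.67% were whole; they were rounded to whole counts. Reads estimated between near-identical genes may be split, and the kits do not mark strand.

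Genes were filtered by filterByExpr, leaving 13501, and tested with edgeR 4.0.16 (quasi-likelihood, TMM, group and sex as terms, all 35 libraries, Benjamini-Hochberg adjustment, threshold 0.05) in R 4.3.3. The 3 comparisons with controls share the same 14 controls. The SE is the log2 fold change divided by the root of F. CPM uses the TMM-adjusted library size, and log2 CPM a prior count of 1. DESeq2 1.42.0, limma 3.58.1 on log2(TPM + 1) and log2(TPM + 0.1), other filters, controls, blocks and left-out libraries were alternatives. Transcripts were compared with blastn 2.17.0, and exact permutation tests used scipy 1.17.1. The edgeR fit of recovery against controls was tested on simulated data; the other fits were not.

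All 8 genes are named whatever their result. From each marker list the genes of highest mean TPM could be named, and genes of the Ly6, Ms4a, chitinase and CCR2 ligand lists in full; Ly6g, Ms4a4a, Ifitm6 and Mpo were picked out with values seen. The members and lists were chosen with earlier results of these data known. The sex label differs from the design table in 2 libraries. Libraries of a group were compared over 154 pairs, and none agreed within sampling noise.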

Additional observations from a re-analysis of the deposited data

Results flagged for a closer look

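Within groups of 4 to 10 libraries, 6 of 40 sets of values had a library whose gap to the nearest other exceeded Dixon's critical value. Chance gives about 1 in 20 for normal values, but many libraries here share the floor of 0 counts. A set with counts in only 1 library is always flagged, as were Ly6c2 and Hp in Control 6 and Vcan. The number of flags therefore cannot be set against 1 in 20. Control 6 was the highest of the 6 rNLS8 controls for 3 of the genes. It had log2 CPM values of −0.24 for Ly6c2 (0.791 CPM), 2.63 for Hp (6.15 CPM, 101 counts) and 1.25 for Chil3 (2.31 CPM, 38 counts). Its neutrophil marker mean was 2.54 log2 CPM, against −0.55 or less in the other rNLS8 controls, and the part of these cells was not tested.

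Vcan was flagged on few counts. Control 13 was the highest of the 4 WT controls without doxycycline for 2 weeks, with a log2 CPM of −0.42 from 11 counts, and Control 8 the highest of the 6 rNLS8 controls, with −3.03 from 1 count. Chil1 was lowest of the 7 late-disease libraries in Late 6, with a log2 CPM of −0.69 (0.564 CPM, 8 counts), where the next library had 1.38 CPM.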

How the results depend on the processing

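The count of genes higher in recovery than in controls, 6, stayed between 5 and 6 under every alternative run and in every fit that left out 1 library, and the count in early disease stayed at 0. In late disease the count of 1 became 0 against WT controls only, with the title code as a term and against controls of shared title codes only; Ms4a4c then had log2 fold changes of 0.99, 0.62 and 0.65. It was also 0 against the diet-matched WT control (0.18), but that is a single library, assumed to vary like the other groups, and the fit called 0 of 15463 genes, so it says nothing of the call. The count of 4 in recovery against late disease became 1 by DESeq2, which gave no adjusted p to 5 of the 8 genes, 1 in a fit of only the libraries compared, and 0 with the replicate block; it ran from 1 to 6 when libraries were left out. The cause was not tested. The replicate numbers did not pair the libraries: same-numbered recovery and control libraries had correlations of −0.14 to 0.07, and 1 of 7 correlated best with its own number. With the replicate block Plac8 in recovery against controls had an adjusted p of 0.0522 (log2 fold change 2.02). Ccr2 in recovery against late disease was called only without Recovery 4 (2.01, adjusted p = 0.0438). Vcan, tested only without the filter on low counts or by other tools, had a log2 fold change of 2.71 in recovery by edgeR (adjusted p = 0.226). Over all genes, edgeR called 537 in recovery against controls (DESeq2 862, replicate block 912, WT controls only 293), 2080 in late disease (only the libraries compared 959, WT controls only 1009, diet-matched 0, title code as a term 2, shared codes 191), 1 in early disease (DESeq2 168, limma 222 to 1390, replicate block 613, rNLS8 controls only 735) and 79 between recovery and late disease (DESeq2 426, limma without the TPM filter 126, only the libraries compared 14, replicate block 2). Depth limits the low genes: 3 counts correspond to 0.145 to 0.216 CPM.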
